A study of Mus musculus with 2 samples.

Results

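The genes described here encode ligands, receptors and a binding protein of transforming growth factor beta (TGF-beta) and activin signaling: Tgfb1, Tgfb2, Tgfb3, Tgfbr1, Tgfbr2, Inhba, Inhbb, Inhbc, Inhbe and Fst. They were chosen by name, as 10 of the 33224 gene symbols in the deposited table, and they occupied 9 of its 38016 rows because Inhbc and Inhbe shared a row. All 10 had a mean FPKM (fragments per kilobase of exon, relative to all mapped fragments) of at least 0.1, as did 15727 symbols in all. Liver RNA came from male C57BL/6 mice, wild type (WT) or PPARbeta-null (KO), which lack the nuclear receptor encoded by Ppard. The sample labels gave an age of 4 months, and the paper's text gave the time as 48 hr after partial hepatectomy (PH), the surgical removal of most of the liver. Each genotype was 1 library of whole liver, and the sources used here do not state whether RNA from several mice was pooled. Both libraries come from regenerating liver, so no value below compares regenerating with resting liver.

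TGF-beta binds a type II receptor, Tgfbr2, which recruits and phosphorylates the type I receptor Tgfbr1. The type I receptor then phosphorylates Smad2 and Smad3, which enter the nucleus with Smad4. Activins are dimers of inhibin beta subunits, encoded by Inhba, Inhbb, Inhbc and Inhbe. Activin A, the dimer of the Inhba product, uses the receptors Acvr2a, Acvr2b and Acvr1b to reach the same Smads. Follistatin, the product of Fst, binds activins and neutralizes them. In the liver, TGF-beta and activin A are known to hold back hepatocyte division, and Inhbc and Inhbe are expressed mainly by hepatocytes.

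With 1 library per genotype there was no replicate error and no test, and every difference below compares these 2 libraries. The 95% intervals come from the estimated number of fragments, exact Poisson for levels, exact binomial for KO against WT and approximate for ratios between genes. They cover counting error only and say nothing of the spread between mice. The table names a different sequencing lane for each library, and lane and genotype cannot be told apart. A value of 1 FPKM on a transcript of 1 kb stood for about 52.4 fragments in WT and 56.2 in KO. The targeted gene, Ppard on chromosome 17 (28369699 to 28438414), had 2.67 FPKM in WT and 2.42 in KO, so that WT was 1.10 times KO (0.964 to 1.26). The value sums fragments over the whole gene, which part was deleted is not given in the sources used here, and so this level does not check the genotype. Most genes had lower values in KO, and this general shift, a log2 KO/WT of -0.25 at the median gene, depended on the scaling. With the upper quartiles of both libraries set equal, the median was 0.01. The share of genes more than 1.5-fold lower in KO was then 16.5% and the share more than 1.5-fold higher 10.8%, against 26.0% and 6.05% as deposited.

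The promoters of the genes with the largest differences are shown first, because the joint row of Inhbc and Inhbe stood far above WT in KO while Tgfbr2 and Tgfb1 stood below it. Each sequence is the 250 bases before the start site in the RefSeq promoter table, found once in the NCBIM37 (mm9) genome and printed 5′ to 3′ on the strand of the gene. Capitals mark the Smad box CAGAC, the C/EBP-ATF element TGATGNAA and the Sp1 GC box GGGCGG on either strand.
Inhbc: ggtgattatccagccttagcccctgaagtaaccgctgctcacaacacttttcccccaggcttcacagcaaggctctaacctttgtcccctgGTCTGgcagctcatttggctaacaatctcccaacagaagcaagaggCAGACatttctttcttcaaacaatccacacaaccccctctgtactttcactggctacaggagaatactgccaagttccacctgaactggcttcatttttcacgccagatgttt
Inhbe: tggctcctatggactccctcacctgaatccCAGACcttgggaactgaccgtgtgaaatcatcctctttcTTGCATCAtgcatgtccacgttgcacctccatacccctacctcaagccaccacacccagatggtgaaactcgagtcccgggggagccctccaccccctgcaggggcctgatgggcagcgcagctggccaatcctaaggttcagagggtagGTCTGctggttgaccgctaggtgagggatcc
Tgfbr2: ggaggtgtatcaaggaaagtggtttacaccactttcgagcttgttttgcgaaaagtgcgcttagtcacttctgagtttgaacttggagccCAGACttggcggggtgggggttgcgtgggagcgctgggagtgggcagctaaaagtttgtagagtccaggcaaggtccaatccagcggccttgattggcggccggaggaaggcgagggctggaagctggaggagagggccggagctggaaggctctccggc
Tgfb1: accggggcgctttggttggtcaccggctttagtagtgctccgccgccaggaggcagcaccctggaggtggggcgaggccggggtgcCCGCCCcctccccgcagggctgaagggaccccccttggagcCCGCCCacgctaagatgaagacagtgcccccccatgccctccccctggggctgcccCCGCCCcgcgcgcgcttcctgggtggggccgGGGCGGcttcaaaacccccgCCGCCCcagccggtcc

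These windows lie at chr10:126807605-126807854 (minus strand) for Inhbc, chr10:126788905-126789154 (minus strand) for Inhbe, chr9:116084482-116084731 (minus strand) for Tgfbr2 and chr7:26471771-26472020 (plus strand) for Tgfb1. The windows of Inhbc and Inhbe both lie inside their joint row, which begins 2674 nt before the annotated start of Inhbc. Whether transcripts of that row start at either window was not tested, and which gene carried its difference cannot be told apart. The RefSeq start was 4 nt from the GENCODE start of the gene for Inhbc, 76 nt for Inhbe, 98 nt for Tgfbr2 and 0 nt for Tgfb1. Inhbc held 2 Smad boxes, at -159 to -155 and -113 to -109 from the start. Inhbe also held 2, at -220 to -216 and -31 to -27, and Tgfbr2 held 1, at -160 to -156. The Smad box is short, and 42.2% of all 32851 promoters of this length held at least 1. Inhbe alone of the 4 held the C/EBP-ATF element, the site of factors of the integrated stress response, at -181 to -174, and 3.45% of all promoters held it. Tgfb1 held 5 GC boxes, against 0 in the other promoters shown, and 32.7% of all promoters held at least 1. GC content was 48.8% for Inhbc, 58.8% for Inhbe, 58.4% for Tgfbr2 and 75.2% for Tgfb1, with a median of 52.4% over all promoters. The nuclear receptor half-site AGGTCA (14.0% of all promoters), its direct repeat with 1 base between the copies (0.0335%), the cAMP response element TGACGTCA (1.55%), the E-box CACGTG (6.02%), the TATA box TATAAA (12.4%) and the AP-1 site TGANTCA (6.75%) had no match in the 4 windows on either strand. A match is only a match of letters, and the absence of one says nothing about binding of the factor.

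Of the 10 genes, 2 (Tgfbr2 and Tgfb1) were more than 1.5-fold lower in regenerating KO livers, beside 26.0% of all genes. Inhbc and Inhbe, through their joint row, were the 2 that were more than 1.5-fold higher, beside 6.05% of all genes, and 6 genes were within 1.5-fold. By more than 2-fold, 1 gene (Tgfbr2) was lower, beside 13.4% of all genes, and 2 (the same joint row) were higher, beside 2.79%. By any amount, 7 were lower and 3 higher, beside 74.8% of all genes on the lower side. On the log2 scale the middle of the 10 KO/WT values was -0.28, or -0.34 with the joint row counted once, close to the -0.25 of all genes and the -0.24 of 11723 genes with a mean of at least 1 FPKM. The middle of the group therefore sat at the general shift, and the larger differences lay in single members.

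**Figure D1:**
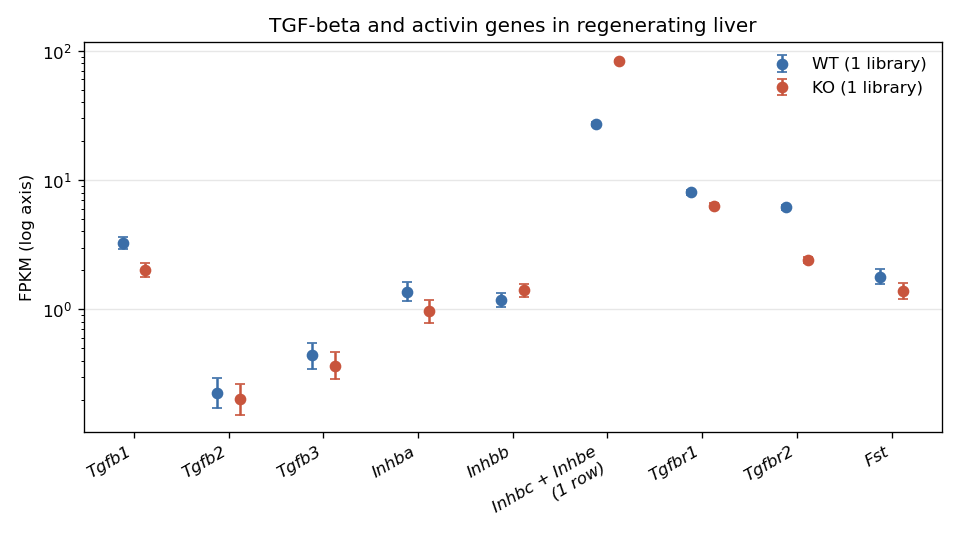
FPKM of each gene in the WT (blue) and KO (red) library on a log axis, with bars for the 95% counting interval. The joint row of Inhbc and Inhbe is at 27.3 FPKM in WT and 82.8 in KO, and Tgfbr2 is at 6.13 and 2.41.

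The joint row of the liver-expressed activin subunits Inhbc and Inhbe had the highest level and the largest difference of the set. It had 27.3 FPKM (26.3 to 28.3) in WT and 82.8 FPKM (81.1 to 84.5) in KO, 3.03-fold higher in KO (2.91 to 3.17). Of 15727 genes, 99.2% had a log2 KO/WT at or below that of this row, and its level moved from percentile 83.5 in WT to 94.4 in KO. These subunits form activin C and activin E, whose roles in the liver are less settled than those of activin A. The interval used the annotated transcript length of Inhbc, on which the values stood for about 2809 fragments in WT and 9142 in KO.

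The row could not be divided between the 2 genes. It ran on chromosome 10 from 126786114 to 126810274 on the minus strand, 24161 nt in all. Inhbc (126793384 to 126807600) has 2 exons and a transcript of 1966 nt, and Inhbe (126786458 to 126788828) has 2 exons and a transcript of 2135 nt. The genes lie in the same direction with 4555 nt between them, so the row spans both genes and the space between. It reached 2674 nt beyond the annotated 5′ end of Inhbc and 344 nt beyond the 3′ end of Inhbe. One FPKM was given for it, and which gene, or both, carried the difference cannot be told apart in these values.

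**Figure D2:**
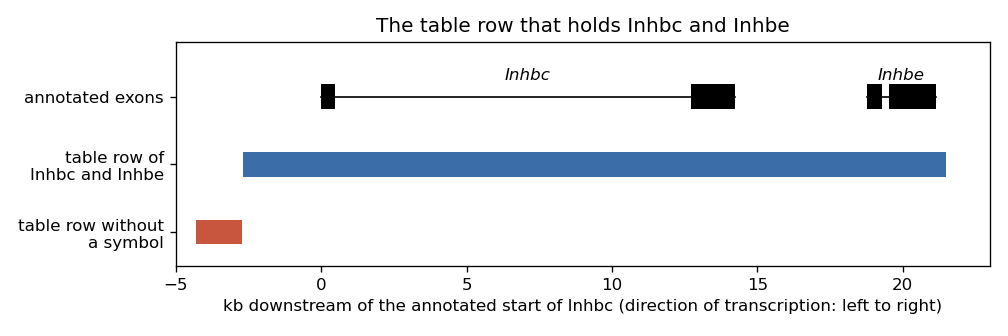
Annotated exons of Inhbc and Inhbe (black), the table row that holds both (blue) and a neighboring row without a symbol (red), against the distance in kb from the annotated start of Inhbc in the direction of transcription. The blue row spans both genes and extends 2674 nt before the start of Inhbc.

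Inhba encodes the subunit of activin A, and its row was lower in KO. It had 1.37 FPKM (1.15 to 1.62) in WT and 0.965 (0.79 to 1.17) in the KO library, 1.42-fold lower (1.10 to 1.85) on about 141 and 106 fragments. The levels' intervals overlap slightly, and 30.1% of all genes had a log2 KO/WT at or below that of Inhba. With equal upper quartiles the WT/KO ratio of Inhba was 1.18. The row spans 16094073 to 16123435 on chromosome 13, wider than the gene at 16103684 to 16119044. The same span carried 2 rows of Gm17394, a gene annotated on the other strand. One was listed at 0 in both libraries and the other had 0.262 FPKM in WT and was listed at 0 in KO. The library kit is not stated to mark strand, so reads of overlapping genes on opposite strands cannot be told apart.

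Inhbb, the subunit of activin B, on chromosome 1 (121312042 to 121318825), was the only member with a row of its own that was higher in KO. It had 1.19 FPKM (1.05 to 1.34) in WT and 1.40 (1.25 to 1.56) in the KO library, 1.18-fold higher with an interval from no difference up to 1.39. As deposited, this difference was about as large as counting error. With most genes lower in KO, it stood at percentile 87.5 of all log2 ratios. The size of the difference depended on the scaling. The WT/KO ratio of Inhbb was 0.851 as deposited, with a counting interval that began at 0.72. It was 0.703 with equal upper quartiles and 0.722 when centred on the median of expressed genes. The counting interval holds for the deposited scaling only and would move with the ratio, so it does not measure the effect of scaling. The ratio of Inhba to Inhbb within each library, which no scaling of the libraries changes, was 1.15 in WT and 0.689 in KO. The KO value was 0.598 times that of WT (0.443 to 0.806), and the subunit with the higher FPKM was Inhba in WT, where their intervals overlapped, and Inhbb in KO, where they did not.

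Fst, which encodes follistatin, on chromosome 13 (115242470 to 115249180), had 1.79 FPKM (1.56 to 2.04) in WT and 1.39 (1.20 to 1.61) in KO. The WT/KO ratio was 1.29 (1.06 to 1.58), near the general shift at percentile 40.5. Relative to its targets Inhba and Inhbb together, Fst was 0.697 in WT and 0.586 in KO. The latter was 0.841 times the former (0.663 to 1.07), which counting error can cover. Relative to Inhba alone it was 1.10-fold higher in KO (0.802 to 1.52), again within counting error. The joint row of Inhbc and Inhbe was 15.3 times Fst in WT and 59.7 times in KO, 3.91-fold more (3.20 to 4.78). It was 10.6 times the sum of Inhba and Inhbb in WT and 35.0 times in KO, 3.29-fold more (2.85 to 3.79). In RNA of inhibin beta subunits, the KO library was thus weighted further toward Inhbc and Inhbe.

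Tgfbr2, the type II TGF-beta receptor, had the largest difference toward lower values. It had 6.13 FPKM (5.90 to 6.37) in WT and 2.41 (2.27 to 2.56) in the KO library, 2.54-fold lower (2.37 to 2.73), which left 39.4% of the WT level. About 2595 fragments in WT and 1096 in KO lay behind these values, and 6.16% of all genes had a log2 KO/WT as low or lower. The gene lies on chromosome 9 (115993415 to 116084383), with a longest transcript of 8088 nt in 8 exons. The value sums both annotated transcripts, so it does not show which was lower.

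Tgfbr1, its type I partner, on chromosome 4 (47366094 to 47427803), was much closer between the libraries. It had 8.04 FPKM (7.72 to 8.37) in WT and 6.32 (6.05 to 6.60) in the KO library, 1.27-fold lower (1.20 to 1.35) at percentile 40.6. The ratio of Tgfbr1 to Tgfbr2 was 1.31 in WT and 2.62 in KO, 1.99-fold higher in KO (1.82 to 2.19). The receptor genes, whose products work as a complex, thus did not differ in proportion, and this comparison within each library holds under any scaling. The level of Tgfbr1 relative to all genes was alike in both libraries, at percentile 61.0 in WT and 59.8 in KO. Tgfbr2 stood at percentile 54.7 in WT and 41.2 in KO.

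**Figure D3:**
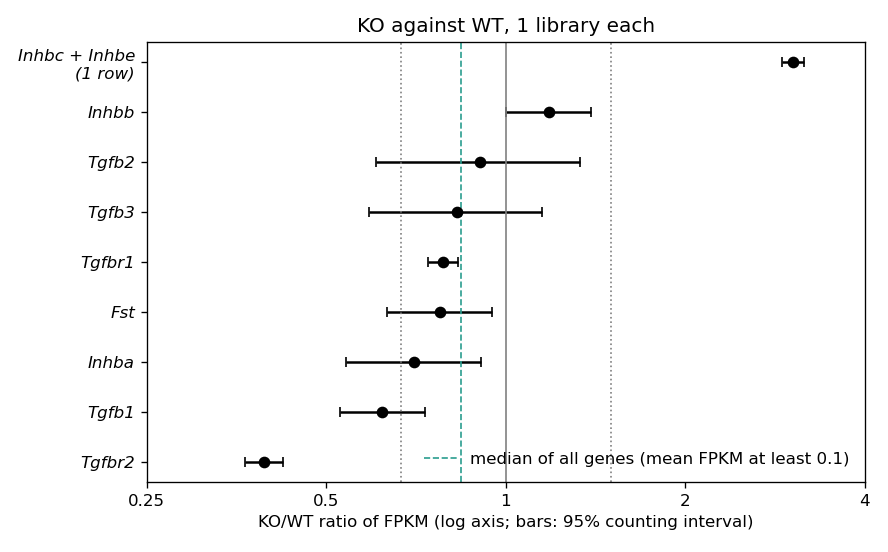
KO/WT ratio of FPKM for each gene on a log axis, with 95% counting intervals. The dotted lines mark 1.5-fold and the dashed line the median of all genes. Tgfbr2 is at 0.394 and the joint row of Inhbc and Inhbe at 3.03, and the other rows lie between 0.621 and 1.18.

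Tgfb1, the main TGF-beta ligand of the liver, was the other gene more than 1.5-fold lower in KO. On chromosome 7 (26472021 to 26490096), it had 3.27 FPKM (2.95 to 3.62) in WT and 2.03 (1.79 to 2.30) in the KO library, 1.61-fold lower (1.37 to 1.90). Its percentile among all log2 ratios was 19.6, and with equal upper quartiles its ratio was 1.33, and with equal sums of FPKM 1.57, so that its side of 1.5-fold depended on the scaling. B9d2, whose row ends 443 nt upstream on the same chromosome, had 3.50 FPKM in WT and 2.88 in KO. Tgfb1 was 0.533 times Tgfbr2 in WT and 0.841 times in KO, 1.58-fold higher in KO (1.32 to 1.88), so the receptor differed more than the ligand.

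The other ligands, Tgfb2 and Tgfb3, were the least abundant members and did not differ beyond counting error. Tgfb3, on chromosome 12 (87397694 to 87419991), had 0.443 FPKM (0.348 to 0.549) in WT and 0.367 (0.287 to 0.464) in KO, so that WT was 1.21 times KO (0.867 to 1.70). Tgfb2, on chromosome 1 (188447065 to 188529871), had 0.225 FPKM (0.171 to 0.294) in WT and 0.204 (0.153 to 0.266) in KO, so that WT was 1.10 times KO (0.752 to 1.65). Fewer than 100 fragments lay behind each of these values, and a difference within those intervals was not detectable at this depth. With equal upper quartiles the ratio of Tgfb2 turned to 0.912. SNORA70, listed on the span of Tgfb2, was at 0 in both libraries. Tgfb1 was 4.89 times the sum of Tgfb2 and Tgfb3 in WT and 3.55 times in KO, and the KO value was 0.726 times that of WT (0.542 to 0.973).

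In the order of levels, which FPKM allows because it is per length, both libraries had the joint row of Inhbc and Inhbe first, then Tgfbr1, Tgfbr2 and Tgfb1, and Tgfb3 and Tgfb2 last. Fst, Inhba and Inhbb followed Tgfb1 in WT, whereas Inhbb, Fst and Inhba did so in KO. The intervals of Fst and Inhba overlapped in WT, as did those of Inhba and Inhbb. In KO the intervals of Tgfbr2 and Tgfb1 overlapped slightly and those of Inhbb and Fst nearly coincided. The intervals of Tgfb3 and Tgfb2 did not overlap in either library.

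The counts of the lists that follow are read beside the same shares of all genes, 26.0% lower and 6.05% higher by more than 1.5-fold. Beyond the 10 genes, the genes named as activin receptors were near the general shift apart from Acvr2b. The list goes by name, and not all of its products serve mainly activins. Of its 6 genes 5 had a mean of at least 0.1 FPKM. Of these 1 was more than 1.5-fold lower and 0 higher, and the median log2 ratio of the list was -0.21. Acvr2b, a type II receptor, had 0.897 FPKM in WT and 0.361 in the KO library, 2.49-fold lower (1.65 to 3.80). Acvr2a, the more abundant type II receptor, had 4.85 and 4.54 FPKM, which counting error can cover (WT/KO 0.991 to 1.15). The ratio of Acvr2a to Acvr2b was 5.40 in WT and 12.6 in KO, 2.33-fold higher in KO (1.56 to 3.49). As with the TGF-beta receptors, the 2 genes differed unequally.

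Among the type I receptors, Acvr1b, the receptor of activin A, had 3.42 FPKM in WT and 2.57 in the KO library, 1.33-fold lower. Acvr1, which serves bone morphogenetic proteins (BMPs) as well, had 4.81 and 4.14 FPKM, or 1.16-fold lower (1.05 to 1.28). Acvrl1, an endothelial receptor, had 0.645 and 0.585 FPKM, which counting error can cover (WT/KO 0.848 to 1.43). Acvr1c was at 0.00467 FPKM in WT and listed at 0 in KO, too low for a ratio. With equal upper quartiles the median of this list was 0.06, so its direction depended on the scaling.

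The Smad transducers were led by a lower Smad2. Of 4 genes 1 was more than 1.5-fold lower and 0 higher, and the median was -0.29. With equal upper quartiles that median was -0.02, and with rows of several symbols left out it was -0.48. Smad2 had 6.96 FPKM in WT and 3.76 in the KO library, 1.85-fold lower (1.67 to 2.05). Smad3, the other transducer of both ligands, had 3.26 and 3.04 FPKM, which counting error can cover (WT/KO 0.972 to 1.18). Smad4, the shared partner, had 10.2 and 7.32 FPKM, or 1.40-fold lower. Zfyve9, an adaptor that presents Smads to the receptor, had 4.27 and 4.24 FPKM in a row shared with Gm17354.

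Genes that store, present or activate TGF-beta were lower more often than not. Of 11 genes 10 passed the level filter, and 6 of these were more than 1.5-fold lower and 0 higher, with a median of -0.61. That median depended on the pseudocount because several of the genes were low. With 1 FPKM it was -0.29, beside -0.17 for all genes. Ltbp4, a protein that tethers latent TGF-beta to the matrix, had 7.96 FPKM in WT and 3.78 in the KO library, 2.10-fold lower (1.96 to 2.26). Itgav, the integrin chain that takes part in activation, had 8.44 and 6.53 FPKM, or 1.29-fold lower. Eng, an endothelial co-receptor whose row is shared with Ak1, had 15.7 and 14.5 FPKM, or 1.08-fold lower.

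The inhibitors were mixed. Of 13 genes 12 passed the level filter, and of these 3 were more than 1.5-fold lower, a share close to the 26.0% of all genes, and 0 higher. By any amount 8 were lower and 4 higher, and the median was -0.22. Smad7, which TGF-beta itself induces and which blocks the receptors, had 4.32 FPKM in WT and 2.63 in the KO library, 1.64-fold lower (1.49 to 1.82). As for Tgfb1, whose ratio of 1.61 became 1.33 with equal upper quartiles, its side of 1.5-fold depended on the scaling. The ratio of Smad7 to Smad3 was 1.33 in WT and 0.863 in KO, 0.65 times the WT value (0.567 to 0.746). The nuclear repressor Tgif1 had 10.9 and 8.92 FPKM, and the ubiquitin ligase Smurf2 had 10.2 and 10.1. Ski, a corepressor of Smads, had 6.18 and 5.54 FPKM, or 1.11-fold lower. Those higher in KO, named after their values were seen, were Skil, Smad6, Pmepa1 and Tgif2. Skil, a relative of Ski, had 3.79 FPKM in WT and 4.90 in the KO library, 1.29-fold higher (1.20 to 1.39), and the others were 1.05-fold to 1.21-fold higher, which counting error can cover.

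The genes known to be induced by TGF-beta were mostly lower in KO, though not all. Of the 12 genes counted, all above the filter, 8 were more than 1.5-fold lower and 1 higher, with a median of -1.16. That median depended on the pseudocount, and was -0.46 with 1 FPKM and -1.71 with 0.01 FPKM. By any amount 9 were lower and 3 higher. Those lower were led by Col1a2, a chain of type I collagen whose row the authors' table marks as FAIL, with 7.68 FPKM in WT and 1.47 in the KO library, 5.23-fold lower (4.72 to 5.81). Col1a1, Col3a1, Acta2 and Timp1, which were singled out after their values were seen, had WT/KO ratios of 4.40 to 4.88. Fn1, the fibronectin that hepatocytes also secrete into plasma, went the other way and had 195 and 367 FPKM, 1.88-fold higher (1.87 to 1.90). Cdkn1a, the p21 inhibitor of the cell cycle, had 33.5 and 40.4 FPKM, and Tgfbi had 10.3 and 12.5. The list was thus not lower in every gene, and because of Fn1 its summed level was 293 FPKM in WT and 438 in KO.

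Of 12 other ligand genes of the family 9 passed the filter, and 4 of these were more than 1.5-fold lower and 1 higher, with a median of -0.48. Gdf15, a ligand induced by cell stress, had 5.59 FPKM in WT and 1.67 in the KO library, 3.35-fold lower (2.77 to 4.06). Gdf2, the ligand BMP9 that the liver makes, had 5.22 and 3.73 FPKM, or 1.40-fold lower, and Gdf10 had 3.74 and 3.04, or 1.23-fold lower. Mstn was listed at 0 in both libraries. None of these ligands was as much higher in KO as the joint row of Inhbc and Inhbe, which came to 82.8 FPKM while this whole list summed to 20.7 in WT and 12.6 in KO.

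**Figure D4:**
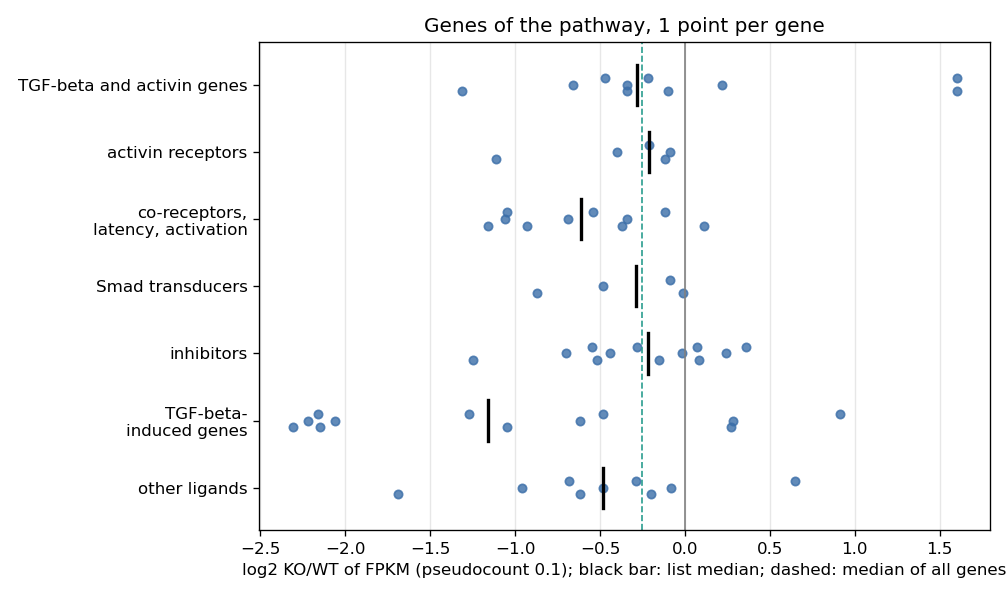
Log2 KO/WT of FPKM (pseudocount 0.1) for the 10 genes and for the other genes of the pathway, with 1 point per gene, a black bar at the list median and a dashed line at the median of all genes (-0.25). The TGF-beta-induced genes have a median of -1.16 and spread from -2.31 to 0.91.

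The libraries also differed in markers of the cells that make and receive these signals. In whole liver, fewer cells of a type and less RNA per cell cannot be told apart. Hepatocyte markers summed to 16148 FPKM in WT and 15870 in KO. Of 8 genes, 3 were more than 1.5-fold lower and 2 higher, with a median of 0.07, and none was at 0. Transthyretin (Ttr) had 2503 and 2406 FPKM, Apoa1 had 3061 and 3503, and Serpina1a had 3337 and 4039. Ass1, of the urea cycle, was 2.72-fold lower in KO, and Cyp2e1 was 2.23-fold higher. The markers of the labelled tissue were thus abundant in both libraries and differed in both directions, 4 lower and 4 higher. Their part in the value of the joint row of Inhbc and Inhbe was not tested.

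Markers of non-parenchymal cells, among them cells known to express Tgfb1 and Tgfbr2, had lower summed levels in KO. Of the stellate cell markers 2 of 8 were more than 1.5-fold lower, a share close to the 26.0% of all genes, and 0 higher. They had a median of -0.47 and summed to 91.1 FPKM in WT and 68.2 in KO. Within that list Dcn had 62.6 and 46.9 FPKM, Reln 9.56 and 6.40, Colec11 8.87 and 8.02, and Ngfr 1.84 and 0.822. Sinusoidal endothelial cell markers, with 5 of 8 lower and 0 higher, had a median of -0.61 and summed to 72.3 and 53.6 FPKM. Clec4g, in a row shared with Gm9814, had 21.8 and 18.9 FPKM, Fcgr2b 12.2 and 8.47, Stab1 11.7 and 10.5, and Lyve1 2.72 and 1.17. These lists thus held genes near the general shift as well as genes more than 2-fold lower. Kupffer cell and macrophage markers, with 6 of 8 lower and 0 higher, had a median of -0.79 and summed to 60.8 and 38.5 FPKM. Cd5l had 18.4 and 10.8 FPKM, Clec4f 17.3 and 10.6, Csf1r 3.98 and 1.64, and Marco 6.58 and 7.37. The part of these markers in the lower Tgfb1, Tgfbr2 and collagen genes was not tested. With equal upper quartiles the medians were -0.20 for stellate, -0.34 for endothelial and -0.53 for Kupffer cell markers.

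Markers of scarcer cells also had lower summed levels in KO. Cholangiocyte markers, with 3 of 4 past 1.5-fold, summed to 5.36 FPKM in WT and 3.06 in KO, and Krt19 had 1.72 and 0.559, Krt7 1.12 and 0.36, and Sox9 1.95 and 1.78. Platelet markers, with 3 of 4 lower, summed to 3.49 and 1.81 FPKM, with Pf4 at 0.819 and 0.34, Itga2b at 1.37 and 0.844, and Gp1bb, in a row shared with Sept5, at 1.12 and 0.345. Ppbp, at 0.162 and 0.182 FPKM, and Gp9, below the filter at 0.0211 and 0.0979, had higher values in KO, and both are named after their values were seen. Counting error can cover the difference of Ppbp (KO/WT 0.429 to 3.11), and Gp9 had too few fragments for a ratio. Platelets carry stored TGF-beta protein, which RNA levels do not measure. Neutrophil markers, with 4 of 5 lower, summed to 15.2 and 8.06 FPKM, with S100a8 at 6.68 and 3.33, S100a9 at 6.11 and 3.48, and Retnlg at 1.88 and 0.957, while Ly6g was listed at 0 in both. Lymphocyte markers were near the floor, with 3 of 7 above the filter and sums of 0.729 and 0.422 FPKM, and the intervals of the ratios of Cd3g, Cd79a and Cd79b included 1. Their part in the values of Tgfb1 and the other members was not tested.

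Of these lists the proliferation markers lay farthest from WT, and all 8 were more than 1.5-fold lower in KO, with a median of -5.84. Pcna, the sliding clamp of DNA replication, had 66.8 FPKM in WT and 13.0 in KO. Rrm2 had 47.5 and 1.03, Cdk1 had 41.9 and 0.434, and Ccnb1, the cyclin of entry into mitosis, had 20.2 and 0.0562, a WT/KO ratio of 360 (179 to 820). The libraries thus differed far more in RNAs of the cell cycle than in any of the 10 genes. With a single time point, genotype and the phase of regeneration cannot be told apart for any of the 10 genes.

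**Figure D5:**
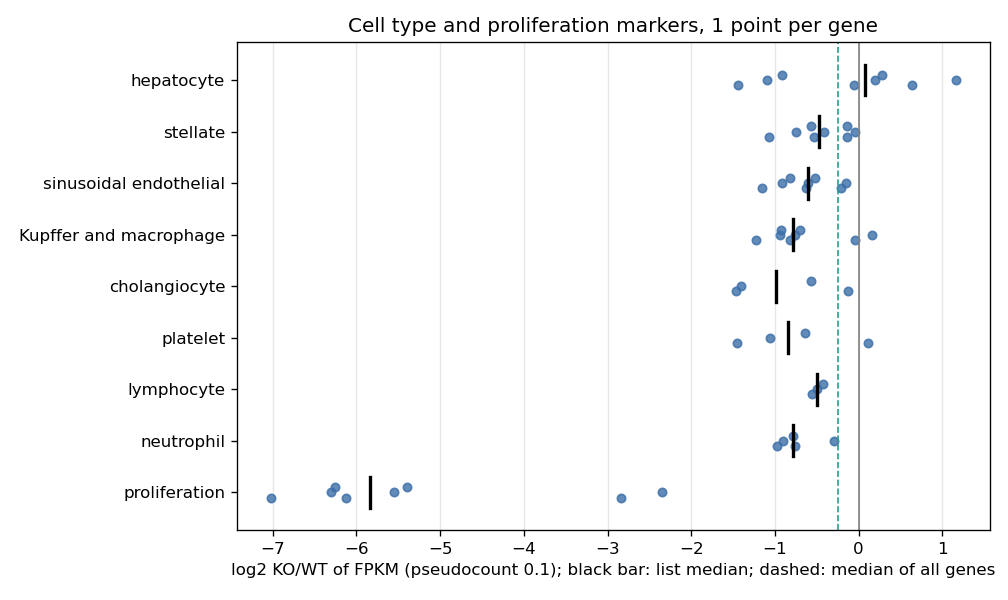
Log2 KO/WT of FPKM (pseudocount 0.1) for cell type and proliferation markers, with 1 point per gene, a black bar at the list median and a dashed line at the median of all genes. Hepatocyte markers have a median of 0.07, Kupffer cell and macrophage markers of -0.79 and proliferation markers of -5.84.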

How the data were processed

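Hepatic RNA of 1 WT and 1 KO mouse liver library was sequenced on an Illumina HiSeq instrument. The labels describe paired-end reads and the paper's methods single end reads. The authors aligned the reads to mm9 with TopHat (2.0.0), assembled transcripts with Cufflinks (1.3.0) and estimated 1 FPKM per locus and library with Cuffdiff, and these deposited FPKM values were the only values used. The authors' columns of fold changes, test statistics, p-values, q-values and significance calls were not used. Where a symbol had several rows their FPKM were added, the 850 rows with several symbols gave each symbol the joint value, and 2302 rows without a symbol and 21 rows marked HIDATA were left out.

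Depth was estimated from 485 single-exon genes of at least 1.5 kb, whose low values (67 in WT and 75 in KO) lay at multiples of 1 fragment, worth 0.0191 FPKM in WT and 0.0178 in KO on 1 kb. Fragments of a gene are its FPKM times the length of its longest annotated transcript (GENCODE vM1) times that depth. Ratios carry exact (Clopper-Pearson) 95% intervals for counting error only, ratios between genes carry normal 95% intervals on the log scale from the same fragments, and a gene with 3 fragments or fewer in a library has no ratio. List medians used log2((KO + 0.1)/(WT + 0.1)), which understates the difference of low genes, over genes with a mean of at least 0.1 FPKM. No test across samples was run. Coordinates are on NCBIM37, counted from 1, and promoter sequences are from RefSeq. The named genes were the 10 members, the activin receptor and Smad genes, neighbors on a member's locus, and of every other list the 3 highest genes and the gene with the largest fold past 1.5-fold in each direction among genes with a mean of at least 1 FPKM. One gene of the TGF-beta-induced list is not reported here, and the counts and median of that list leave it out. The members and lists were chosen with earlier results of these data known. Alternatives covered the scaling, the threshold, the filter, the pseudocount and the handling of shared rows. Steps were tested on simulated data. Computation used scipy 1.17.1, pandas 2.3.3 and numpy 2.4.6 under Python 3.11.15, and plots matplotlib 3.10.9.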

Additional observations from a re-analysis of the deposited data

Results flagged for a closer look

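A row without a gene symbol, outside the comparisons of the report, had a signal next to the joint row of Inhbc and Inhbe. It lies on chromosome 10 from 126810326 to 126811914, 1589 nt long and 51 nt upstream of the joint row, and had 0.268 FPKM in WT and 1.13 FPKM in KO, 4.21-fold higher in KO. It was looked at after its values were seen, and whether its fragments belong to a transcript of Inhbc was not tested. The WT value of this row was low, and no counting interval was computed for its ratio.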

How the results depend on the processing

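With 1 library per genotype no replicate could be left out, and every value rests on both libraries. No paired analysis was possible because each genotype has a single library. The count of members more than 1.5-fold lower in KO was 1 in place of 2 with equal upper quartiles, 1 when centred on the median of expressed genes and 1 with a threshold of 2-fold, since Tgfb1 then had a WT/KO ratio of 1.33, 1.37 and 1.61. The count of members higher in KO was 0 in place of 2 when rows with several symbols were left out, because Inhbc and Inhbe have no other row. The median log2 KO/WT of the members was -0.03 with equal upper quartiles, against -0.28. Tgfbr2 had a WT/KO ratio of 2.10 and the joint row of Inhbc and Inhbe 0.272 under that scaling. Inhba was then at 1.18, Fst at 1.06, Tgfbr1 at 1.05 and Inhbb at 0.703. The medians of the activin receptors (0.06) and inhibitors (0.05) changed sign there, as did the ratios of Tgfb2 (0.912) and Tgfb3 (0.997). Of the other alternatives of these counts and the median, 23 moved less than 1.5-fold or less than the spread over genes. The genes share 1 depth estimate, and below about 100 fragments only large differences could be seen.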
